A study of Oryza sativa Japonica Group with 4 samples.

Results

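The genes described here are those of jasmonate synthesis and of the TIFY family, which holds the JAZ repressors of jasmonate signalling, in drought-treated rice leaves. They were taken from the deposited table by words in the gene name or description (tify, JAZ, lipoxygenase, allene oxide, 12-oxophytodienoat, jasmonate or jasmonic), with basic helix-loop-helix factors left out. The words took 59 of the 33744 genes in the table. Of these, 4 are potassium channels, taken because the letters of tify stand inside "rectifying", so the label of the set holds for the other 55 genes. The OE13-2KR/oswox13-1 line, labelled as drought sensitive, was compared with the OE13 line, labelled as drought resistant, with 2 RNA-seq libraries per line (Oryza sativa, Japonica group). All libraries came from leaves of seedlings 14 days old after 6 h of drought, and the series' title places the lines in a study of acetylated OsWOX13, a WUSCHEL-related homeobox transcription factor. By its name the first line differs from OE13 both in the 2KR form and in the oswox13-1 background, and these cannot be told apart. No wild-type and no watered libraries were analysed here, so each value sets one line under drought against the other.

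Jasmonate is a lipid hormone made from linolenic acid. Lipoxygenase, allene oxide synthase and allene oxide cyclase act in the plastid, 12-oxophytodienoate reductase and rounds of beta-oxidation act in the peroxisome, and JAR1 then joins jasmonate to isoleucine to give the active form. That conjugate brings the F-box receptor COI1 and a JAZ protein together, and the JAZ repressor is degraded, which frees MYC-type transcription factors. In leaves the pathway is known for wound and herbivore defence and for stress responses, and JAZ genes are themselves commonly induced by jasmonate.

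Values are FPKM, which are scaled by gene length and library and can be compared between genes. Summed FPKM ran from 931335 to 941593 per library, and read depth is not known. The row taken for OsWOX13 from general knowledge of its locus (Os01g0818400, listed as OsWOX8) had 27.1 and 49.9 FPKM in OE13-2KR/oswox13-1, against 22.02 and 75.6 FPKM in OE13, so the lines overlapped. Of 15 leaf marker genes, 1 was at 0 in every library, and their summed FPKM was 2271 and 948 in OE13-2KR/oswox13-1, against 3425 and 1651 in OE13. Summed FPKM of 6 root marker genes was 29.9 and 26.4 in OE13-2KR/oswox13-1, against 20.9 and 22.3 in OE13, and that of 19 seed marker genes was 734 and 907, against 691 and 769. A mean of 1 FPKM was reached by 10 leaf, 5 seed and 2 root marker genes. The libraries of the lines did not overlap in the root list, as was so for 56.2% of all genes tested below. The part of these differences in the results below was not tested. In bulk leaf libraries, fewer cells of a type and less RNA per cell cannot be told apart.

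No gene of the set passed the test at an adjusted p under 0.05 (limma on log2(FPKM + 1), Benjamini-Hochberg adjustment over 20174 genes; lowest adjusted p in the set 0.187). Over all genes tested, 0.00496% passed, which is 1 gene. Of the 59 genes, 46 reached the mean of 1 FPKM needed for the test, and 13 lay below it. At an unadjusted p under 0.05, 4 of the 46 were higher and 6 were lower in OE13-2KR/oswox13-1, against 8% higher and 12% lower over all genes tested. The members' counts are near that background. Libraries of the lines did not overlap for 18 genes that were higher and 13 that were lower in OE13-2KR/oswox13-1, or 39.1% and 28.3%, where the background is 23.4% and 32.8%. The median log2 fold change of the 46 genes was 0.12, beside -0.083 for all genes tested. Without the potassium channels, 4 of 43 were higher and 4 were lower at that threshold. The count of higher genes was 8 without OE13-2KR/oswox13-1 replicate 2, and the count of lower genes was 3 when that library or either OE13 library was left out. A p here measures the spread between these libraries, since the labels do not say that they came from separate plants.

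The JAZ repressors were led by the same 3 genes in both lines. EG2, OsJAZ5 and OsJAZ6 together held 78.1% and 78.6% of the summed FPKM of the 14 JAZ-type genes in the OE13-2KR/oswox13-1 libraries, against 77.8% and 76.7% in the OE13 libraries. Their order differed between the lines, because OsJAZ5 stood first in both OE13-2KR/oswox13-1 libraries and below EG2 and OsJAZ6 in both OE13 libraries. OsJAZ5 (Os03g0402800, chromosome 3, positions 16407695 to 16410007, minus strand) had 479 and 485 FPKM in OE13-2KR/oswox13-1, against 301 and 283 FPKM in OE13. The libraries agreed closely within each line and did not overlap between lines, with a log2 fold change of 0.72 (SE 0.18, unadjusted p = 0.0087, adjusted p = 0.194). It made up 31.3% and 31.6% of the JAZ-type sum in OE13-2KR/oswox13-1, against 22.9% and 23.3% in OE13.

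EG2 (Os04g0653000), a jasmonate signalling repressor known for its part in rice spikelet development, had 388 and 418 FPKM in OE13-2KR/oswox13-1, against 391.9 and 357 FPKM in OE13. OsJAZ6 (Os07g0615200) had 325 and 306 FPKM in OE13-2KR/oswox13-1, against 328 and 290 FPKM in OE13. Both overlapped between the lines, so of the 3 leading JAZ genes OsJAZ5 alone had separate libraries. In OE13 the levels of OsJAZ6 and OsJAZ5 overlapped, whereas in OE13-2KR/oswox13-1 the 3 genes lay apart from each other.

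A second JAZ gene, TIFY10C (Os09g0439200, chromosome 9, positions 16273522 to 16275268, minus strand), lay about an order of magnitude below the leading genes and was just as tight within lines. It had 37.7 and 39.1 FPKM in OE13-2KR/oswox13-1, against 25.3 and 24.7 FPKM in OE13 (log2 fold change 0.60, SE 0.17, unadjusted p = 0.015, adjusted p = 0.199). The other JAZ genes with separate libraries differed by less, relative to their spread. OsJAZ8 (Os09g0401300) had 70.3 and 56.9 FPKM in OE13-2KR/oswox13-1, against 48.7 and 44.5 FPKM in OE13. OsJAZ9 had 51.5 and 45.8 FPKM in OE13-2KR/oswox13-1, against 37.5 and 40.8 FPKM in OE13. OsJAZ2 had 57.1 and 63.1 FPKM in OE13-2KR/oswox13-1, against 52.9 and 46.1 FPKM in OE13. These JAZ genes were higher in both OE13-2KR/oswox13-1 libraries, each with an adjusted p above that of TIFY10C. TIFY11A, the lowest JAZ gene that was tested, had 6.01 and 7.13 FPKM in OE13-2KR/oswox13-1, against 4.85 and 4.62 FPKM in OE13.

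One JAZ-type gene lay the other way, OsJAZ (Os10g0391400), with 27.6 and 25.0 FPKM in OE13-2KR/oswox13-1, against 28.0 and 30.9 FPKM in OE13. OsTIFY11d, OsJAZ4 and OsJAZ11 overlapped between the lines at mean levels between 16.1 and 50.1 FPKM. OsJAZ12 and a second gene listed as OsJAZ (Os07g0153000) stayed at or below 0.366 FPKM in every library and were not tested. Of the 12 JAZ-type genes tested, log2 fold changes were positive for 9 and negative for 3, from -0.16 to 0.72 with a median of 0.19; the sign of OsJAZ4 turned when libraries were rescaled by median ratio, and those of OsJAZ4 and OsJAZ6 turned under quantile normalisation. At an unadjusted p under 0.05, 2 were higher and 0 were lower in OE13-2KR/oswox13-1, or 16.7% higher, with a background of 8% higher and 12% lower. That count was 3 when OE13-2KR/oswox13-1 replicate 2 was left out, 1 without OE13 replicate 1 and 0 without OE13 replicate 2.

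**Figure D1:**
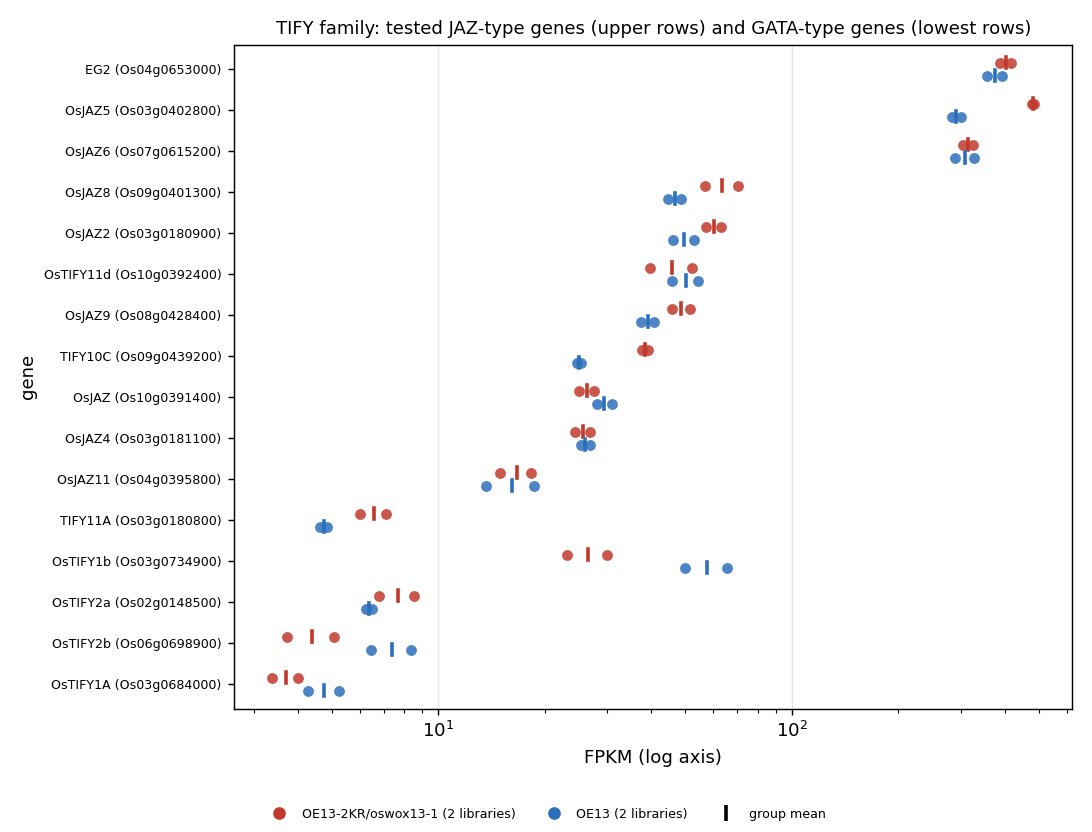
FPKM of the 16 tested TIFY genes on a log axis, one row per gene, with OE13-2KR/oswox13-1 libraries above OE13 libraries in each row; points are libraries (2 per line) and short vertical bars are line means. OsJAZ5 at 479 and 485 FPKM stands clear of its OE13 values of 301 and 283 FPKM, and OsTIFY1b at 30.0 and 23.1 FPKM stands below its OE13 values of 49.9 and 65.3 FPKM.

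The GATA-type TIFY genes went mostly the other way. Proteins of this class carry a GATA zinc finger beside the TIFY domain and are not known as jasmonate repressors. OsTIFY1b (Os03g0734900, chromosome 3, positions 30094435 to 30099093, minus strand) had 30.0 and 23.1 FPKM in OE13-2KR/oswox13-1, against 49.9 and 65.3 FPKM in OE13. Both OE13-2KR/oswox13-1 libraries lay below both OE13 libraries, with a log2 fold change of -1.09 (SE 0.23, unadjusted p = 0.0046, adjusted p = 0.188). OsTIFY1b was the only gene of the set found in the authors' deposited table of genes marked up, of whose 1207 rows 1112 could be matched. There its log2 fold change is 0.71, its linear fold change 1.63, its p 0.0332 and its adjusted p 0.568. That table runs toward OE13: 1107 of its 1112 genes that could be paired with the FPKM values averaged higher in OE13.

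OsTIFY2b (Os06g0698900, chromosome 6, positions 29366039 to 29370366, minus strand) lay just under the unadjusted threshold, with 5.06 and 3.74 FPKM in OE13-2KR/oswox13-1, against 6.46 and 8.34 FPKM in OE13 (log2 fold change -0.64, SE 0.25, unadjusted p = 0.047, adjusted p = 0.247). OsTIFY1A had 4.004 and 3.39 FPKM in OE13-2KR/oswox13-1, against 5.22 and 4.29 FPKM in OE13. OsTIFY2a had 6.79 and 8.55 FPKM in OE13-2KR/oswox13-1, against 6.49 and 6.24 FPKM in OE13. The unadjusted p of OsTIFY2b was above 0.05 under both rescalings, with the replicate block, without a filter and with a mean of at least 5 FPKM. Its log2 fold change ran from -0.82 to -0.46 when each library was left out in turn. None of the 4 genes overlapped between the lines, 3 being lower and 1 higher in OE13-2KR/oswox13-1, where 32.8% and 23.4% of all genes tested were lower and higher without overlap. These signs held under both rescalings. The median log2 fold change of this class was -0.47, beside 0.19 for the JAZ-type genes. The difference between the classes was not tested.

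Synthesis begins with lipoxygenases, which add oxygen to polyunsaturated fatty acids. The deposited annotation places Lox2:Os:1, OsLOX8, OsLOX7, OsLOX11 and OsLOX1 (Os02g0194700) in alpha-linolenic acid metabolism. It does not place OsLOX1 (Os03g0700700), SPH, LOX-3 and LOX-L2 there. The counts below take these lipoxygenases together, and which of them make jasmonate was not tested. The lipoxygenase Lox2:Os:1 (Os08g0508800, chromosome 8, positions 25216460 to 25224078, minus strand), listed as a chloroplast precursor, had 105 and 117 FPKM in OE13-2KR/oswox13-1, against 41.1 and 50.8 FPKM in OE13. Its means were 111 ± 8.46 FPKM in OE13-2KR/oswox13-1, against 45.9 ± 6.85 FPKM in OE13 (SD, n = 2 each). This is a log2 fold change of 1.26 (SE 0.19, unadjusted p = 0.0010, adjusted p = 0.187), the lowest p in the set.

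OsLOX1 (Os03g0700700) was the highest gene of the whole set, with 1048 and 691 FPKM in OE13-2KR/oswox13-1, against 373 and 630 FPKM in OE13. Its libraries did not overlap between the lines, but the gap between them was smaller than the spread within either line (log2 fold change 0.81, SE 0.35, adjusted p = 0.276). The summed FPKM of the 9 longer lipoxygenase models was 1326 and 1000 in OE13-2KR/oswox13-1, against 585 and 880 in OE13, and most of it was this gene. OsLOX8, next to Lox2:Os:1 in the genome, had 56.0 and 66.8 FPKM in OE13-2KR/oswox13-1, against 52.0 and 50.1 FPKM in OE13.

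SPH, listed as similar to a lipoxygenase, overlapped between the lines with 56.6 and 76.4 FPKM in OE13-2KR/oswox13-1, against 65.8 and 57.9 FPKM in OE13. OsLOX7 was the only one of these with a negative log2 fold change, -0.89 (SE 0.42, adjusted p = 0.301), with 20.2 and 22 FPKM in OE13-2KR/oswox13-1, against 25.7 and 61.9 FPKM in OE13. Most of that difference lay in OE13 replicate 2. The other 4 longer models overlapped between the lines. Of all 9, 8 had a positive log2 fold change, beside 43.2% of all genes tested, and these 8 stayed positive under both rescalings. The median of the 9 was 0.13, and leaving out OE13-2KR/oswox13-1 replicate 2 left 5 positive. At an unadjusted p under 0.05, 1 of the 9 was higher and 0 were lower. That is 11.1% higher, near the background of 8% higher, with 12% lower. The count of higher genes was 3 without OE13-2KR/oswox13-1 replicate 2 and 2 when OE13 replicate 2 was left out.

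Allene oxide synthase, which turns the lipoxygenase product into an unstable epoxide, was uncertain in these values. AOS1 (Os03g0767000) had 21.2 and 58.6 FPKM in OE13-2KR/oswox13-1, against 47.8 and 40.4 FPKM in OE13. The whole span of AOS1 (100%) lies under Os03g0766900 on the other strand, and the sources used here do not say whether counting used the strand. That neighbour, itself described as an allene oxide synthase but annotated with proteasome assembly, so that its identity is unsettled here, had 39.0 and 24.5 FPKM in OE13-2KR/oswox13-1, against 26.0 and 28.0 FPKM in OE13, so the library that was lowest for AOS1 was highest for it. AOS2, with no such overlap, had 7.64 and 11.7 FPKM in OE13-2KR/oswox13-1, against 9.92 and 7.28 FPKM in OE13.

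HPL2, listed both as an allene oxide synthase and as a hydroperoxide lyase, which cleaves the same substrates to aldehydes, had 18.2 and 12.2 FPKM in OE13-2KR/oswox13-1, against 1.51 and 13.5 FPKM in OE13. Its log2 fold change of 1.40 (SE 0.82, adjusted p = 0.376) comes with OE13 replicate 1 as the one low library. Neighbouring AOS4 stayed at or below 0.019 FPKM. The single allene oxide cyclase gene, AOC (Os03g0438100), which fixes the stereochemistry of the product, had 151 and 270 FPKM in OE13-2KR/oswox13-1, against 245 and 190 FPKM in OE13. None of these enzymes had separate libraries.

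The 12-oxophytodienoate reductase OPR7 (Os08g0459600), which carries out the reduction in jasmonate synthesis in rice, had 47.6 and 56.6 FPKM in OE13-2KR/oswox13-1, against 46.9 and 37.8 FPKM in OE13. The libraries did not overlap, but the gap between them was smaller than the spread within either line (log2 fold change 0.29, SE 0.20, adjusted p = 0.446). OPR8 had 2.70 and 2.72 FPKM in OE13-2KR/oswox13-1, against 2.66 and 1.90 FPKM in OE13, and 73.0% of its span lies under a gene on the other strand. EG1, a plastid lipase of jasmonate synthesis known from spikelets, stayed at or below 0.904 FPKM and was not tested.

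At the last step JAR1 (Os05g0586200, chromosome 5, positions 29200200 to 29205715, plus strand), the synthetase that joins jasmonate to isoleucine, had 49.5 and 56.6 FPKM in OE13-2KR/oswox13-1, against 30.6 and 31.9 FPKM in OE13. The libraries lay well apart, with a log2 fold change of 0.74 (SE 0.18, unadjusted p = 0.0074, adjusted p = 0.194). The 18 tested genes from lipoxygenase to JAR1 include HPL2 and lipoxygenases not annotated to alpha-linolenic acid metabolism. Of the 18, 14 had a positive log2 fold change, or 77.8% beside 43.2% of all genes tested, while the sign of AOC turned with median ratios. Without Os03g0766900 it was 13 of 17, and without OE13-2KR/oswox13-1 replicate 2 it was 10 of 18. At an unadjusted p under 0.05, 2 were higher and 0 were lower, or 11.1% higher, near the background of 8%, and the median was 0.16. The count of higher genes was 4 when replicate 2 of either line was left out.

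**Figure D2:**
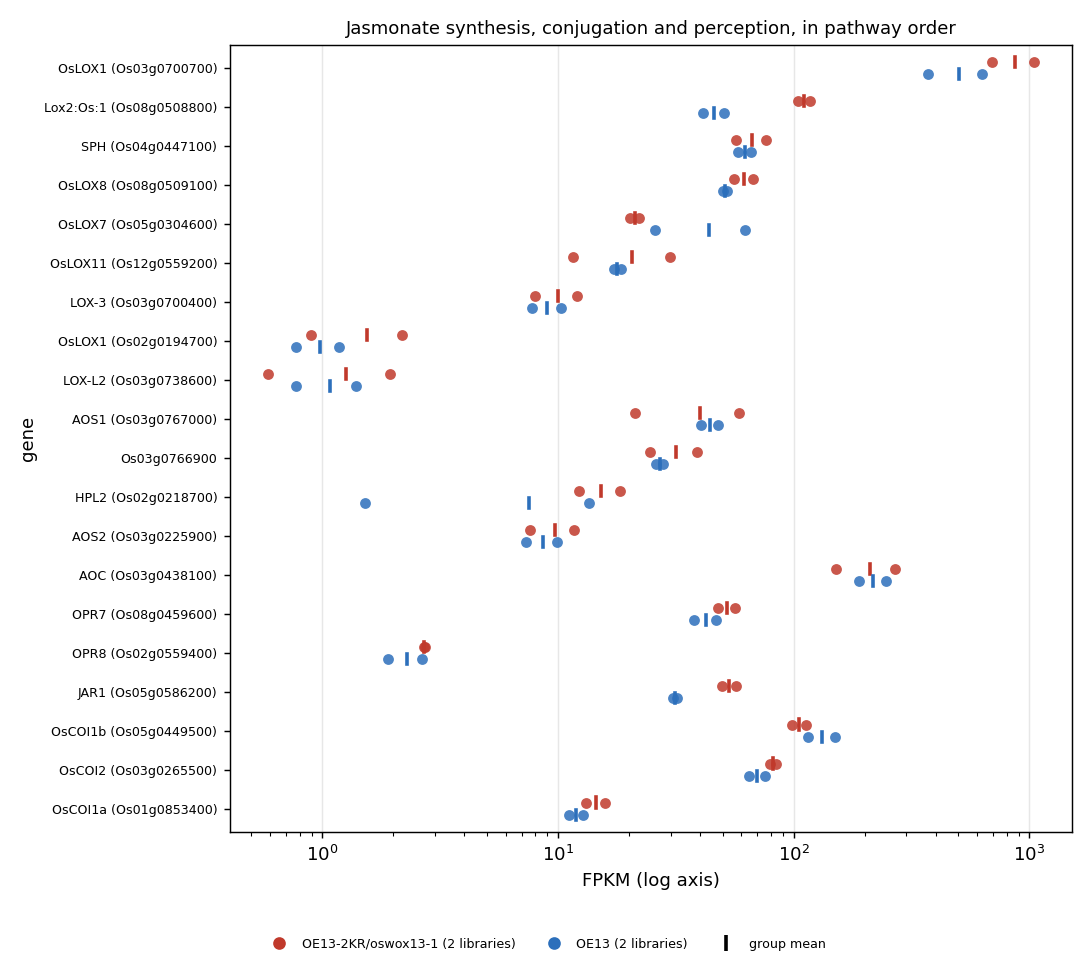
FPKM of the tested genes of jasmonate synthesis, conjugation and perception on a log axis, from lipoxygenases at the top to receptors at the bottom, with OE13-2KR/oswox13-1 libraries above OE13 libraries in each row; points are libraries (2 per line) and short vertical bars are line means. Lox2:Os:1 and JAR1 show a clear gap between the lines, while AOS1 and AOC overlap.

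Perception goes through the COI receptors. OsCOI1b (Os05g0449500), the highest of them, had 113 and 98.6 FPKM in OE13-2KR/oswox13-1, against 115 and 149 FPKM in OE13. OsCOI2 (Os03g0265500) had 79.0 and 84.1 FPKM in OE13-2KR/oswox13-1, against 64.4 and 75.4 FPKM in OE13. OsCOI1a (Os01g0853400) had 13.1 and 15.9 FPKM in OE13-2KR/oswox13-1, against 12.8 and 11.1 FPKM in OE13. Each had separate libraries, OsCOI1b lower and the other two higher in OE13-2KR/oswox13-1, and 56.2% of all genes tested had separate libraries too. The log2 fold changes lay between -0.31 and 0.26, and the lowest adjusted p was 0.428. The one factor left out by the rule, OsbHLH009 (Os10g0575000), listed as a JAZ-interacting activator of the pathway, had 25.7 and 20.9 FPKM in OE13-2KR/oswox13-1, against 18.4 and 28.5 FPKM in OE13, which overlap.

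Other genes of the set carry the words of the rule without a known place in the pathway. Os02g0753300, a protein with the LH2 domain that lipoxygenases carry at their amino end (chromosome 2, positions 31676474 to 31677436, plus strand), had 25.1 and 31.6 FPKM in OE13-2KR/oswox13-1, against 43.7 and 45.96 FPKM in OE13 (log2 fold change -0.65, SE 0.19, unadjusted p = 0.019, adjusted p = 0.205). A second LH2 domain gene, Os10g0361000 (chromosome 10, positions 11110251 to 11110999, plus strand), had 1.78 and 0.457 FPKM in OE13-2KR/oswox13-1, against 2.76 and 13.5 FPKM in OE13. Its log2 fold change was -1.88 (SE 0.70, unadjusted p = 0.040, adjusted p = 0.235) with all libraries, and -0.90 without OE13 replicate 2. The remaining one, Os10g0361900, stayed at or below 0.124 FPKM.

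OsJAC1, listed as similar to a jasmonate-induced protein, had 17.9 and 9.39 FPKM in OE13-2KR/oswox13-1, against 5.33 and 8.81 FPKM in OE13, with 81.9% of its span under a gene on the other strand. The other 4 jasmonate-induced proteins lay at or below 1.60 FPKM in every library, and 1 was at 0 in every library. OsRab11, a small GTPase of vesicle traffic listed with jasmonate defence signalling, had 45.9 and 66.8 FPKM in OE13-2KR/oswox13-1, against 43.0 and 42.6 FPKM in OE13, with 92.5% of its span under a gene on the other strand. LLB, a putative carboxyl methyltransferase of the chloroplast, had 5.74 and 3.87 FPKM in OE13-2KR/oswox13-1, against 8.83 and 6.36 FPKM in OE13.

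The potassium channels are no part of the pathway, but they supply 2 of the 6 lower genes. Os12g0118400, similar to an inwardly rectifying channel subunit (chromosome 12, positions 891782 to 898384, plus strand), had 56.6 and 48.2 FPKM in OE13-2KR/oswox13-1, against 89.4 and 72.6 FPKM in OE13 (log2 fold change -0.62, SE 0.20, unadjusted p = 0.025, adjusted p = 0.215). Os01g0696000, similar to an outward-rectifying channel (chromosome 1, positions 28798880 to 28803859, plus strand), had 19.5 and 11.3 FPKM in OE13-2KR/oswox13-1, against 32.2 and 25.0 FPKM in OE13 (log2 fold change -0.88, SE 0.31, unadjusted p = 0.032, adjusted p = 0.223). KAT3 had 10.5 and 26.8 FPKM in OE13-2KR/oswox13-1, against 9.06 and 10.2 FPKM in OE13.

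**Figure D3:**
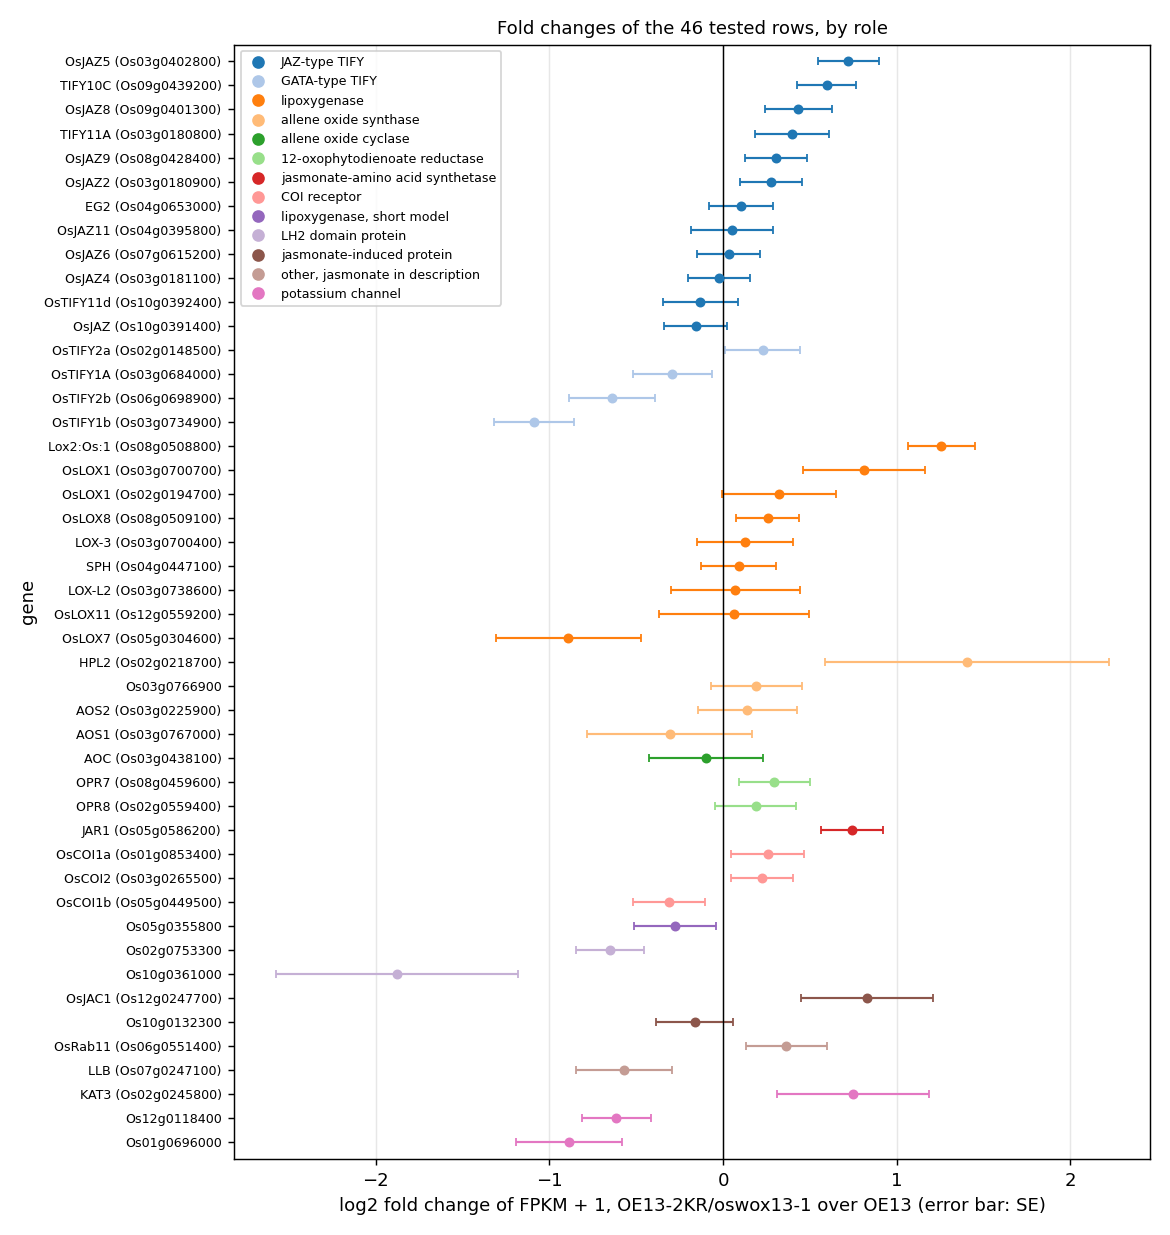
Log2 fold change of FPKM + 1, OE13-2KR/oswox13-1 over OE13, for the 46 tested genes, grouped by role with roles in colour; points are limma estimates and bars their SE. Estimates run from -1.88 (Os10g0361000) to 1.40 (HPL2), both with wide bars, and no gene passed the adjusted threshold.

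The filter on low values left out genes close to it. Of the 13 untested genes, Os12g0559934, a short lipoxygenase model, and Os12g0144200 came nearest, at mean levels of 0.986 and 0.985 FPKM. Just inside lay LOX-L2 at 1.17 FPKM and OsLOX1 (Os02g0194700) at 1.26 FPKM.

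The genes at an unadjusted p under 0.05 differed in how much they rested on 1 library. The log2 fold change of OsJAZ5 stayed between 0.68 and 0.76 when each library was left out in turn, and that of TIFY10C between 0.57 and 0.62. For JAR1 the range was 0.65 to 0.84, for Lox2:Os:1 it was 1.11 to 1.41, and for OsTIFY1b it was -1.28 to -0.90. That of Os10g0361000 ran from -2.85 to -0.90, and that of Os01g0696000 from -1.25 to -0.52. No sign changed among these 10 genes, which their choice at a low unadjusted p favours. Lox2:Os:1, JAR1 and OsTIFY1b stayed under an unadjusted p of 0.05 whichever library was left out. OsJAZ5 was above 0.05 without OE13 replicate 2, TIFY10C without either OE13 library, and the other 5 without at least 1 library.

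**Figure D4:**
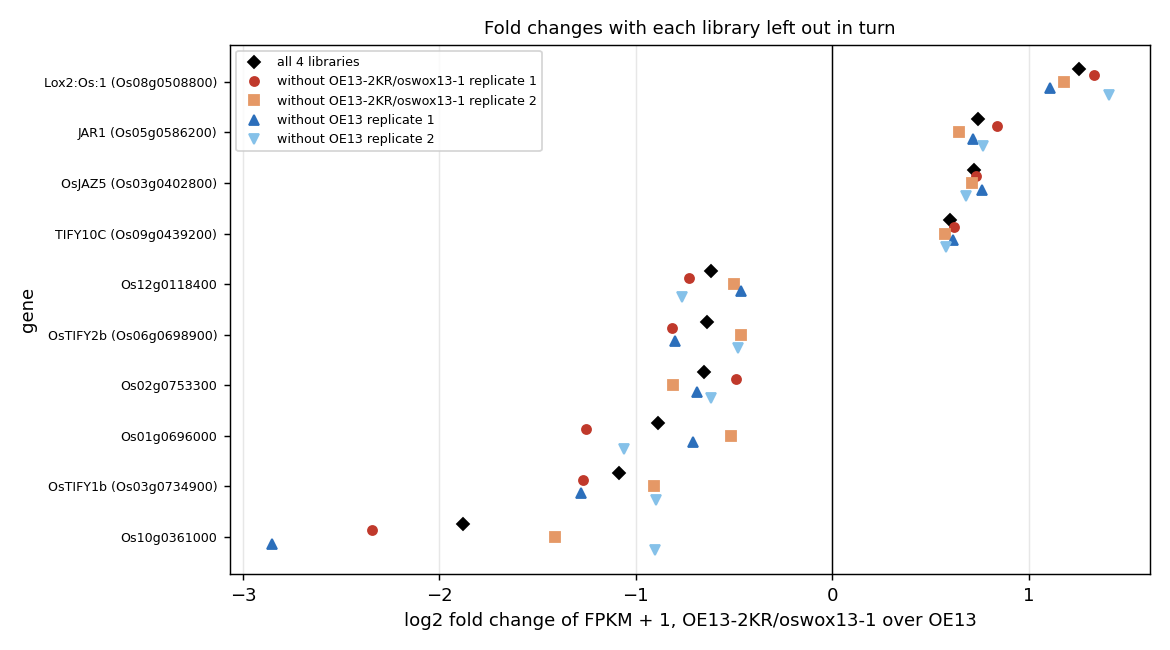
Log2 fold change of FPKM + 1, OE13-2KR/oswox13-1 over OE13, for the 10 genes at an unadjusted p under 0.05, with all 4 libraries (black diamonds) and with each library left out (coloured symbols). The symbols of OsJAZ5 and TIFY10C lie within 0.68 to 0.76 and 0.57 to 0.62, while those of Os10g0361000 spread from -2.85 to -0.90.

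Several members are neighbours in the genome and did not all vary alike. TIFY11A, OsJAZ2 and OsJAZ4 lie in a row on chromosome 3, with gaps of 3.69 and 10.8 kb. TIFY11A and OsJAZ2 had separate libraries, higher in OE13-2KR/oswox13-1, whereas OsJAZ4 had 26.9 and 24.3 FPKM in OE13-2KR/oswox13-1, against 25.3 and 26.8 FPKM in OE13. Lox2:Os:1 and OsLOX8 lie 16.96 kb apart on opposite strands of chromosome 8, with log2 fold changes of 1.26 and 0.26 and separate libraries for both. On chromosome 3 LOX-3 lies 12.4 kb from OsLOX1 (Os03g0700700), and there the separate libraries of OsLOX1 stand beside overlapping ones of LOX-3, at means of 10.04 FPKM in OE13-2KR/oswox13-1, against 9.01 FPKM in OE13.

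Genes of other pathway steps, of families that hold such genes and of proteinase inhibitors were taken by words from outside the set and placed beside it. Together called other pathway genes here, they were 53 genes, 22 of them from the proteinase inhibitor list. Of the 53, 40 were tested, and again 0 passed at an adjusted p under 0.05. At an unadjusted p under 0.05, 13 were higher and 3 were lower in OE13-2KR/oswox13-1, or 32.5% and 7.50%, against the background of 8% and 12%. Their median log2 fold change was 0.36, beside 0.12 for the set and -0.083 for all genes tested. The count of higher genes was 8 when OE13-2KR/oswox13-1 replicate 2 was left out and 7 when OE13 replicate 1 was. The count of lower genes was 5 when replicate 1 of either line was left out, and 1 when replicate 2 of either line was left out.

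Of the 13 higher genes, 5 belong to the peroxisomal steps of beta-oxidation, which shorten the chain of the jasmonate precursor and also break down other fatty acids. Over all genes tested, 8% were higher and 12% lower at that threshold. Of 7 acyl-CoA oxidases and ketoacyl-CoA thiolases, 5 were higher and 0 lower, with a median log2 fold change of 0.79. Without OE13 replicate 1, 2 were higher and 1 was lower. ACX3 (Os06g0354500), an acyl-CoA oxidase, had 165 and 175 FPKM in OE13-2KR/oswox13-1, against 65.1 and 77.1 FPKM in OE13 (log2 fold change 1.25, SE 0.18, unadjusted p = 7.7e-04, adjusted p = 0.187). The thiolase OsI57 (Os02g0817700) had 739 and 504 FPKM in OE13-2KR/oswox13-1, against 265 and 336 FPKM in OE13 (log2 fold change 1.03, SE 0.27, unadjusted p = 0.011, adjusted p = 0.194). Summed FPKM of the 7 genes was 1893 and 1680 in OE13-2KR/oswox13-1, against 878 and 1074 in OE13.

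The other 3 genes of these steps had log2 fold changes between 0.74 and 0.85. OsACX4 had 505 and 494 FPKM in OE13-2KR/oswox13-1, against 227 and 340 FPKM in OE13. ACX1 had 116 and 134 FPKM in OE13-2KR/oswox13-1, against 69.6 and 79.3 FPKM in OE13. The thiolase gene Os10g0457600 had 289 and 320 FPKM in OE13-2KR/oswox13-1, against 199 and 155 FPKM in OE13. All of the 5 had separate libraries, which their choice at a low unadjusted p favours. ACX2 and a further oxidase gene overlapped between the lines, and 23.4% of all genes tested were higher without overlap.

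The 4-coumarate-CoA ligase-like family includes the enzyme that activates the precursor for beta-oxidation in Arabidopsis. Of its 5 tested genes, 5 were higher in both OE13-2KR/oswox13-1 libraries, where 23.4% of all genes tested were higher without overlap. Genes on the other strand cover 59.7% of the span of OsACS5, 46.1% of that of OsACS6 and 19.5% of that of OsACS1. At the unadjusted threshold 3 of the 5 ligase-like genes were higher, beside 8% of all genes tested. Among the 3 was OsACS6 (Os01g0901600), with 31.1 and 39.6 FPKM in OE13-2KR/oswox13-1, against 14.0 and 14.3 FPKM in OE13 (log2 fold change 1.25, SE 0.20, unadjusted p = 0.0013, adjusted p = 0.187). OsAAE3 and OsACS4 were the others, with log2 fold changes of 0.67 and 0.70. Both had an unadjusted p above 0.05 when replicate 2 of either line was left out, which left 1 higher gene. Whether any of these acts on the jasmonate precursor in rice is not given in the files.

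Steps before and after these gave less. The 2 tested plastid lipases and the omega-3 desaturase FAD8, which makes linolenic acid, overlapped between the lines, FAD8 having 155 and 63.2 FPKM in OE13-2KR/oswox13-1, against 218 and 116 FPKM in OE13. Of 7 tested GH3 amido synthetases, the family of JAR1, 0 were higher or lower at an unadjusted p under 0.05. The background is 8% higher and 12% lower. Log2 fold changes were positive for 1 of the 7 and negative for 6, with a median of -0.27, while 43.2% of all genes tested were positive. The positive one, GH3-8, has 78.1% of its span under a gene on the other strand, and OsGH3-7 has 90.5%. These genes were taken by the letters GH3 alone, and which of them act on jasmonate was not tested. OsCYP94C2 (Os11g0151400), of the cytochrome P450 family that oxidises and inactivates the isoleucine conjugate in Arabidopsis, had 33.7 and 28.0 FPKM in OE13-2KR/oswox13-1, against 17.3 and 18.4 FPKM in OE13 (log2 fold change 0.75, SE 0.19, unadjusted p = 0.0100, adjusted p = 0.194).

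Proteinase inhibitors are classical targets of jasmonate in leaves, and the genes taken by such words were divided. Whether each is an inhibitor, such as OsCBSX2 or the inhibitor propeptide domain gene Os06g0116600, was not tested. Of 16 tested, 4 were higher and 3 were lower at that threshold, or 25.0% and 18.8% with a background of 8% and 12%, and the median log2 fold change was 0.10. The 4 higher ones were of the Bowman-Birk type, among them RBBI2-2 (Os01g0123900), with 128 and 224 FPKM in OE13-2KR/oswox13-1, against 75.1 and 68.2 FPKM in OE13 (log2 fold change 1.23, SE 0.30, unadjusted p = 0.0079, adjusted p = 0.194). RBBI3-2, RBBI2-1 and Os01g0127600 were the others, with log2 fold changes of 0.95, 1.00 and 0.74. These counts depended on single libraries: 1 was higher without OE13 replicate 1, 2 were higher and 1 was lower without OE13-2KR/oswox13-1 replicate 2, and 1 was lower without OE13 replicate 2. Whether reads were shared between copies of this gene family was not tested.

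The lower ones were the cystatin domain gene Os04g0350100, the inhibitor propeptide domain gene Os06g0116600 and the Bowman-Birk gene Os03g0823400. Os04g0350100 had 2.87 and 1.70 FPKM in OE13-2KR/oswox13-1, against 17.1 and 11.3 FPKM in OE13 (log2 fold change -2.21, SE 0.31, unadjusted p = 6.3e-04, adjusted p = 0.187). For Os06g0116600 and Os03g0823400 the log2 fold changes were -0.61 and -0.75.

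**Figure D5:**
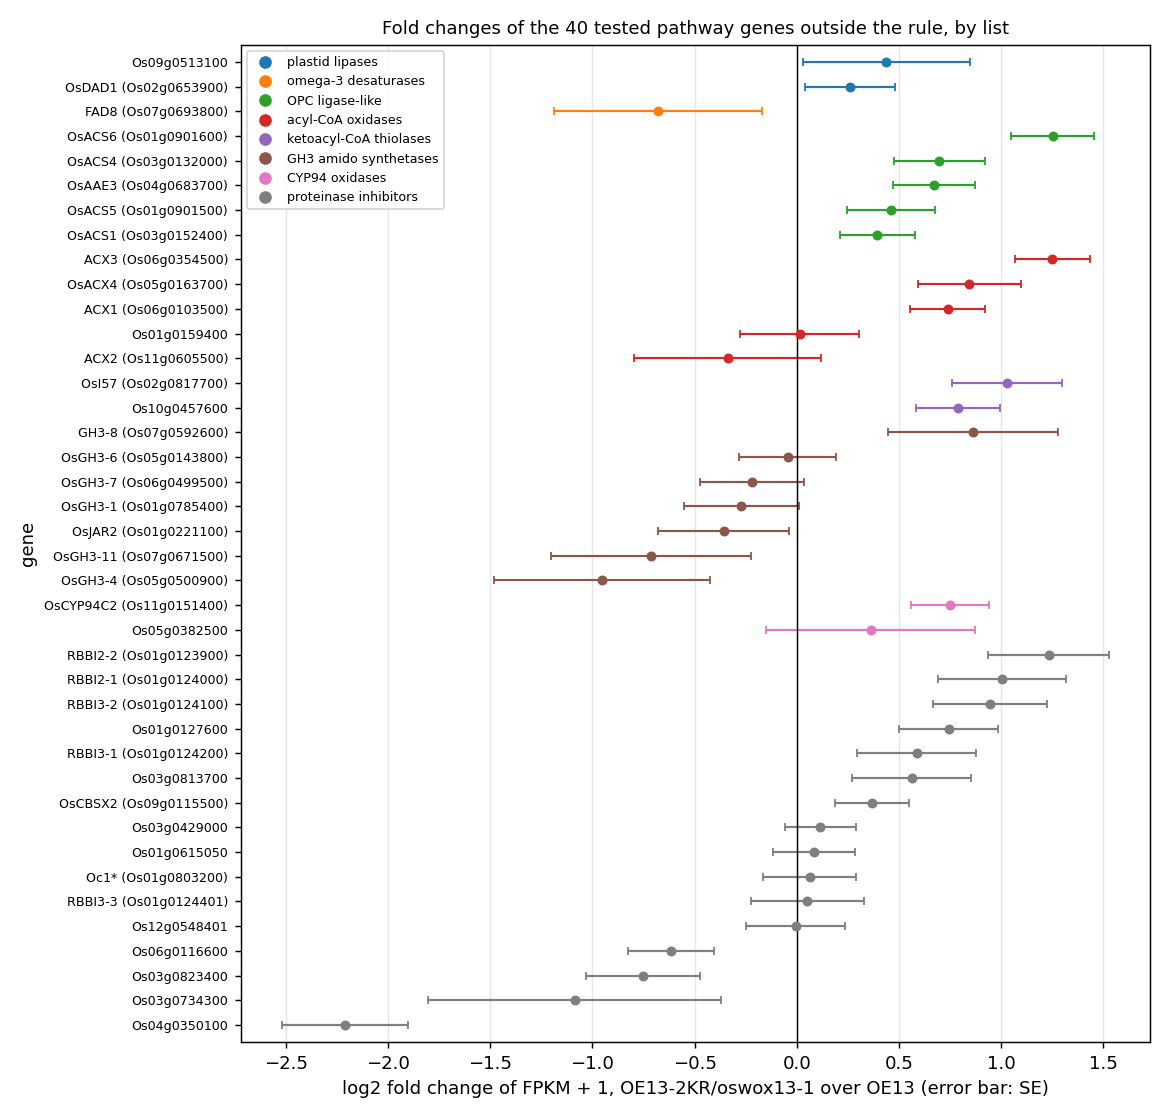
Log2 fold change of FPKM + 1, OE13-2KR/oswox13-1 over OE13, for the 40 tested pathway genes outside the set, in colour by list; points are limma estimates and bars their SE. The ligase-like genes run from 0.40 to 1.25, 5 of 7 beta-oxidation genes from 0.74 to 1.25, and the proteinase inhibitors run from -2.21 to 1.23.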

How the data were processed

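Leaf RNA-seq libraries, 2 per line, were sequenced from both ends for 150 nt each, per the labels' protocols. The molecule is labelled genomic DNA, while the protocol describes RNA. The authors deposited 1 FPKM value per gene in each library, per the file headers. The sources used here do not give the program behind these values. Without stating roles, the submitters' processing notes list the build IRGSP 1.0, DESeq2 1.38.3, featureCounts 2.0.0 and HISAT2 2.2.1. Coordinates come from the deposited table and are assumed to follow that build. The authors also deposited a list of genes marked up, per the file headers with 2 kinds of effect size, log2 and linear fold change (a ratio), and with p-values before and after adjustment. A further list and a sheet of 1 gene were not used, nor were 11 unlabelled value columns.

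The planned test was run with limma 3.58.1 in R 4.3.3: trended variance on log2(FPKM + 1), two-sided, over genes with a mean of at least 1 FPKM, with Benjamini-Hochberg adjustment and a threshold of 0.05. Fold changes on this scale understate changes of low genes. Residual degrees of freedom were 2, and the prior added 3.30. An exact permutation test of 1 value cannot go below 0.333 here. Low values showed no steps of whole reads, so no counting interval is given. The procedure was checked on simulated data. Alternatives were pseudocounts of 0.1 and 0.5, no filter or a mean of at least 5 FPKM, 2 rescalings, an untrended variance, a replicate block, leaving out genes overlapped on the other strand by over 50% of their span, and leaving out each library. Dropping the potassium channels was chosen after seeing the data.

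The members and lists were chosen with earlier results of these data known, and roles were grouped after the values were seen. TIFY genes, synthesis enzymes and conjugating enzymes with a mean of at least 1 FPKM were named, other members at an unadjusted p under 0.05 or a mean of at least 20 FPKM, and other pathway genes at an unadjusted p under 0.05. Genes named beyond this, such as receptors, neighbours, OsJAC1 and low members, were chosen after their values were seen. Word lists for COI1, MYC and TOPLESS genes matched 0 further genes.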

Additional observations from a re-analysis of the deposited data

How the results depend on the processing

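No gene of the set and no other pathway gene passed the adjusted threshold under any of the 14 and 13 alternatives run. With libraries rescaled by median ratio, 7 members were higher at an unadjusted p under 0.05, 1 other pathway gene was lower, and the members' median log2 fold change was 0.21. Quantile normalisation gave a median of 0.22, and moved that of all genes from -0.083 to 0.034. The members' median thus lay 0.20 above all genes as deposited and 0.19 above them after quantile normalisation. That distance was 0.092 without the filter on low values, 0.13 without OE13-2KR/oswox13-1 replicate 2 and 0.35 without replicate 1 of that line. Without a filter on low values, 3 members were lower. Leaving out 1 library gave 3 to 8 higher and 3 to 5 lower members, 7 to 12 higher and 1 to 5 lower other pathway genes, and members' medians of 0.0785 to 0.24. The causes of these shifts were not tested, beyond the fewer samples of a left-out library. The median of the JAZ-type genes ran from 0.078 without the filter to 0.29 with median ratios.

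The 34 single genes followed had been picked for an unadjusted p under 0.05 in the main fit. Each was tried under 12 or 13 alternatives, making 438 pairs of gene and alternative. Of these pairs 0 changed sign, which that choice favours, and with all 4 libraries 0 passed the adjusted threshold. Among the 46 tested members, 8 changed sign without OE13-2KR/oswox13-1 replicate 1 and 5 without replicate 2 of that line. Deviations of same-numbered libraries did not go together, with a correlation of -0.0915 over 20174 genes. Since each line gives a single difference between its libraries, this cannot show whether same-numbered libraries were handled together. A fit with the replicate block gave 4 higher and 4 lower members, 14 higher and 3 lower other pathway genes and a members' median of 0.12. Read depth is unknown, so what it limits cannot be stated.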

Other observations

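Genes of jasmonate metabolism beyond the words used above were looked at after the values had been seen, so they are given without p-values from the main fit. They were part of that fit, and none of them passed its adjusted threshold. OsJMT1 (Os05g0102000), a carboxyl methyltransferase of the kind that turns jasmonate into its volatile methyl ester, had 0.784 and 0.634 FPKM in OE13-2KR/oswox13-1, against 9.26 and 18.8 FPKM in OE13. Both OE13-2KR/oswox13-1 libraries lay far below both OE13 libraries, with a log2 fold change of -3.06 on the log2(FPKM + 1) scale. In the authors' deposited table of genes marked up, which runs toward OE13, its log2 fold change is 2.16 and its adjusted p 0.265.

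Reductases listed as similar to 12-oxophytodienoic acid reductase, spelled so that the rule did not take them, were 7 genes, of which 5 reached a mean of 1 FPKM. All of the 5 had positive log2 fold changes, as did 43.2% of all genes with that mean. OsOPR1 (Os06g0216300) had 23.8 and 33.2 FPKM in OE13-2KR/oswox13-1, against 11.2 and 4.31 FPKM in OE13 (log2 fold change 1.86, and 1.26 to 2.46 when each library was left out in turn). OsOPR6 (Os06g0215500) had 4.94 and 6.47 FPKM in OE13-2KR/oswox13-1, against 1.52 and 0.798 FPKM in OE13 (log2 fold change 1.65). OsOPR10 had a log2 fold change of 0.97, with 87.9% of its span under a gene on the other strand. Whether reads were shared between these genes was not tested.

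AIM1 (Os02g0274100), a multifunctional protein of beta-oxidation, had 533 and 429 FPKM in OE13-2KR/oswox13-1, against 180 and 218 FPKM in OE13 (log2 fold change 1.27). Os01g0348600, similar to the multifunctional protein MFP2, had 113 and 122 FPKM in OE13-2KR/oswox13-1, against 56.3 and 58.6 FPKM in OE13 (log2 fold change 1.02). The basic helix-loop-helix gene OsbHLH006 had 6.11 and 8.76 FPKM in OE13-2KR/oswox13-1, against 2.69 and 3.71 FPKM in OE13 (log2 fold change 1.00). OsNINJA1 (Os05g0558800), picked in the same way, lay the other way. It had 97.5 and 80.2 FPKM in OE13-2KR/oswox13-1, against 101 and 111 FPKM in OE13 (log2 fold change -0.26).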
